A study of Mus musculus with 12 samples.

Results

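Solute carriers (gene symbols Slc followed by a family number, the letter a and a member number) were followed in mouse bone marrow-derived macrophages, which are grown in culture from marrow progenitors. Genes with such a symbol were selected on their deposited levels, and were taken when the mean of 3 libraries reached 100 normalized counts in at least 1 of 4 groups, and 8 well-studied genes (Slc2a1, Slc16a3, Slc7a1, Slc7a2, Slc7a11, Slc40a1, Slc11a1 and Slc11a2) were set aside by name. This left 148 genes of the 310 with a matching symbol, among 24465 genes listed in all. A normalized count is the deposited value per gene and library, a read count divided by 1 size factor for that library. The cells came from Klf6fl/fl:Lyz2cre mice, called Klf6-deleted here, and from Lyz2cre mice, the control genotype. Both genotypes carry Cre recombinase under the control of Lyz2, a myeloid gene for lysozyme, so the effect of Cre itself is shared by both. KLF6 is a Krüppel-like transcription factor that binds DNA through zinc fingers. Cells of each genotype were given 10 ng/ml TNF, an inflammatory cytokine, for 6 h or were left untreated, and total RNA was sequenced after removal of ribosomal RNA from 3 libraries in each of the 4 groups, 12 in all. The title of the study names macrophage KLF6 in experimental atherogenesis. No label tells whether libraries of 1 group came from separate animals, and the p-values given here reflect the spread among the sequenced libraries, which may be technical.

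Solute carriers are membrane proteins that move amino acids, sugars, nucleosides, vitamins, ions and metabolites across the plasma membrane and across the membranes of lysosomes, mitochondria and other organelles. Some work as exchangers, some use the sodium or proton gradient, and several amino acid carriers work only as a light chain bound to the heavy chain encoded by Slc3a2. Activated macrophages are known to alter their supply of glucose, amino acids and metal ions, and lysosomal carriers return the products of digested material to the cytosol.

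The rule on level chose the genes from their group means, so those means are a description. The nearest genes inside it had highest group means of 101.1 (Slc24a3), 101.4 (Slc25a42) and 103.1 (Slc25a53) normalized counts, and the nearest outside had 99.7 (Slc22a15), 86.9 (Slc25a43) and 85.2 (Slc25a14). At least 100 normalized counts were reached in all 4 groups by 126 genes, in 3 groups by 5, in 2 groups by 10 and in 1 group by 7. Slc1a4, Slc4a4, Slc9a5, Slc24a3 and Slc43a3 reached it in Klf6-deleted groups alone, and Slc7a4, Slc25a42 and Slc25a53 in Lyz2cre groups alone. For these 8 genes a genotype difference in the group that admitted them is partly fixed by the choice and is given with no test. The symbol takes in 4 genes that are not known as transporters: the scaffold gene Slc9a3r1, Slc4a1ap, Slc7a6os and the pseudogene Slc2a4rg-ps. Of family 35, the nucleotide sugar transporters, it takes Slc35a genes alone.

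The libraries held 16.9 to 23.4 M reads on genes. Klf6 itself averaged 4161 ± 43.4 normalized counts in TNF-treated Klf6-deleted cells and 7447 ± 255 in TNF-treated Lyz2cre cells, and 7101 ± 269 in untreated Klf6-deleted cells and 10118 ± 174 in untreated Lyz2cre cells (SD, n = 3 each). Klf6-deleted cells thus had less of it with and without TNF but were not devoid of it, and values per gene do not resolve the deleted part. Marker genes of other cells moved with genotype. The 18 stromal markers together took 0.0304 to 0.0344% of normalized counts in TNF-treated Klf6-deleted libraries and 0.00412 to 0.00664% in TNF-treated Lyz2cre libraries. Untreated, they took 0.427 to 0.452% in Klf6-deleted and 0.0227 to 0.0279% in Lyz2cre libraries, and no group had a stromal marker at 0. The 10 macrophage markers took 1.13 to 1.14% in TNF-treated Klf6-deleted libraries and 1.27 to 1.29% in TNF-treated Lyz2cre libraries, and untreated 1.02 to 1.1% in Klf6-deleted and 1.76 to 1.77% in Lyz2cre libraries. All 10 were called untreated, 1 higher and 9 lower in Klf6-deleted cells, and all 16 stromal markers tested were higher. With TNF 4 macrophage markers were higher and 6 lower, and 13 of 15 stromal markers were higher and 1 lower. The 7 monocyte markers took 0.0287 to 0.0329% in TNF-treated Klf6-deleted and 0.0145 to 0.0167% in TNF-treated Lyz2cre libraries (2 higher, 2 lower), and untreated 0.107 to 0.115% in Klf6-deleted and 0.0318 to 0.0348% in Lyz2cre libraries (all 7 higher). Endothelial markers, 8 in all, had 1 higher and 2 lower of 3 tested with TNF and 5 of 5 higher without it, and the 9 neutrophil markers 0 higher and 2 lower of 4 with TNF and 2 higher and 5 lower of 7 without it. The part of these shifts in the differences below was not tested, and in bulk RNA fewer cells of a type cannot be told apart from less RNA per cell. The 148 solute carrier genes took 1.30% of normalized counts in TNF-treated Klf6-deleted cells and 1.33% in TNF-treated Lyz2cre cells, and untreated 1.22% in Klf6-deleted and 1.35% in Lyz2cre cells.

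With TNF, the comparison asks how Klf6 deletion alters the transporter transcripts of inflamed macrophages. Of the 146 genes tested, 42 were higher and 55 lower in Klf6-deleted cells (limma, adjusted p below 0.05 over all genes tested), and 49 did not pass. Slc4a4 and Slc7a4 were too low with TNF to be tested. Differences of 2-fold or more came to 8 higher and 13 lower of the 146 genes. Over all 11717 genes tested they came to 953 higher and 814 lower (8.13% and 6.95%). Of genes that meet the rule on level, 6.99% were higher and 6.67% lower by that much. Among the 126 genes at the level in all 4 groups, 1 was higher and 10 lower by that much. The strongest were lower transcripts of the mitochondrial glutamate carrier Slc25a22, the calcium exchanger Slc24a3 and the nucleoside carrier Slc28a2, and higher transcripts of the monocarboxylate family member Slc16a6 and the glucose carrier Slc2a3. The nucleobase carrier Slc43a3 was higher still, but Klf6-deleted groups alone admitted it. Slc24a3 was admitted by the untreated Klf6-deleted group alone. With TNF it averaged only 12.4 normalized counts in Klf6-deleted and 42.4 in Lyz2cre cells. Without the 8 genes that 1 genotype alone admitted, 40 were higher and 53 lower of 140, and the counts by substrate group below include those 8. The median log2 difference was 0.034, against -0.0090 over all genes tested. Over all genes tested 57.3% passed, 26.5% higher and 30.8% lower, and over genes that meet the rule on level 60.1% passed, 26.8% higher and 33.3% lower. Since a majority of all genes passed, the count for solute carriers is not a result about them. Of the 126 genes at the level in all 4 groups, 32 were higher and 51 lower. Scaling to library totals in place of the deposited size factors moves the median of all genes by 0.326 and turns the split to 89 higher and 34 lower, so small differences with TNF have no firm direction.

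The same question was asked of untreated, resting macrophages, where 32 of the 148 genes were higher in Klf6-deleted cells, 65 were lower and 51 did not pass. The 6 increases of 2-fold or more were in Slc4a4, Slc6a9, Slc1a4, Slc28a2, Slc7a5 and Slc43a3, carriers of bicarbonate, amino acids, nucleosides and nucleobases. Of these, Slc4a4, Slc1a4 and Slc43a3 were admitted by Klf6-deleted groups alone, so their increases are partly fixed by the choice. The 8 decreases of that size were in Slc46a3, Slc9a9, Slc16a7, Slc9a7, Slc26a11, Slc7a7, Slc2a6 and Slc44a1, among them several carriers of endosomes and lysosomes. The 6 increases and 8 decreases were out of 148 genes. Over all 12715 genes tested, 1408 were higher and 345 lower by 2-fold or more (11.1% and 2.71%), and 7.83% and 2.45% of those that meet the rule on level. Among the 126 genes at the level in all 4 groups 2 were higher and 5 lower by that much. Without the 8 genes that 1 genotype alone admitted, 28 of 140 were higher and 63 lower. The median log2 difference was -0.10, against -0.010 over all 12715 genes tested. Among all genes tested 56.9% passed, 27.6% higher and 29.3% lower, and among genes that meet the rule on level 59.8% passed, 26.4% higher and 33.4% lower. At the level in all 4 groups, 26 genes were higher and 56 lower. Scaling to library totals moves the median of all genes by 0.133 here, and the split becomes 50 higher and 50 lower.

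The genotype difference with TNF minus that without was tested over all 12 libraries as a contrast of within-table values. It passed for 92 of 146 genes, above 0 for 52 (the TNF difference was the higher one) and below 0 for 40. All genes tested gave 52.2%, with 26.5% above and 25.7% below 0, and genes that meet the rule on level gave 55.3%, with 27.8% above and 27.5% below. Scaling to library totals shifts this contrast by 0.193 over all genes and gives 77 above and 25 below. In both conditions 13 solute carrier genes were higher and 29 lower in Klf6-deleted cells, or 8.9% and 19.9% of 146, against 10.3% and 13.4% of all genes tested in both and 10.4% and 14.8% of those that meet the rule on level. Calls in opposite directions were made for 25 genes (17.1%, against 13.4% of all genes tested and 14.6% of those that meet the rule on level). Of the 25, 11 were lower with TNF and higher without it, and 14 the other way, against 6.9% and 6.54% of all genes tested and 7.4% and 7.19% of those that meet the rule on level. Slc1a4, among the 11, was admitted by the untreated Klf6-deleted group alone, and 24 genes are left without it.

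**Figure D1:**
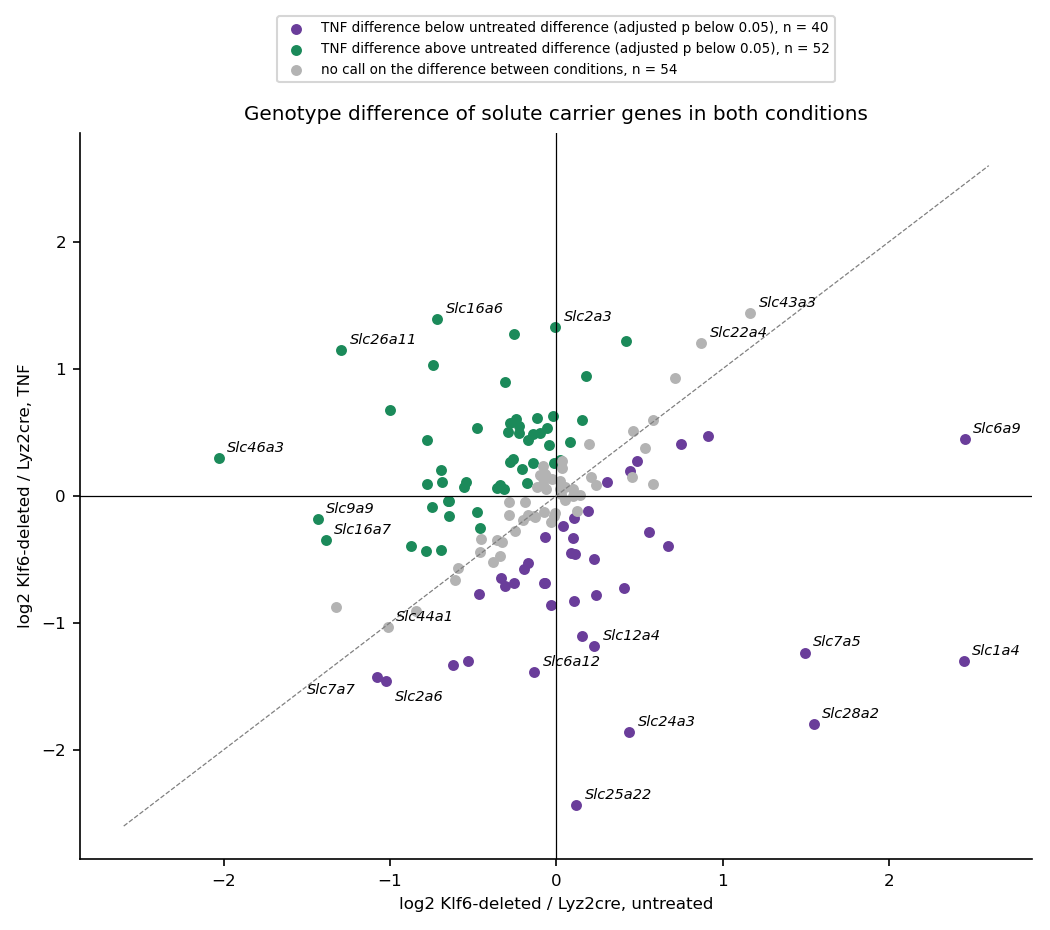
Log2 difference between Klf6-deleted and Lyz2cre cells for 146 solute carrier genes, with TNF on the vertical axis and untreated on the horizontal axis, with colours for the test of the difference between conditions and a dashed line where both are equal. Slc1a4 (-1.30 with TNF and 2.45 untreated), Slc28a2 and Slc7a5 lie at the lower right, and Slc26a11 (1.15 and -1.29) and Slc16a6 at the upper left. The untreated value of Slc1a4 is partly fixed by the choice of genes.

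Promoter windows of 4 of these genes are shown. Slc1a4 and Slc28a2 carry the largest genotype differences that turn sign between conditions. For Slc1a4 the untreated difference is partly fixed by the choice of genes. Slc25a22 has the largest decrease of Klf6-deleted against Lyz2cre cells among TNF-treated cells. Slc6a12 has a match to an inflammatory element and is also lower in TNF-treated Klf6-deleted than in TNF-treated Lyz2cre cells. The windows of 300 bases span a RefSeq transcription start in GRCm38.p6 and are written 5′ to 3′ along the gene's strand. Capitals mark every match, on either strand, to a GC box (GGGCGG) or a CACCC box (CCACCC), both known as sites of Krüppel-like factors, to a hypoxia element (ACGTG), an amino acid response element (TGATGNAA), an interferon element (GAAANNGAA) or an NF-kB element (GGANTTTCC), and matches may overlap. The windows lie at chr11:20332664-20332963, minus strand, for Slc1a4, at chr2:122426185-122426484, plus strand, for Slc28a2, at chr7:141435326-141435625, minus strand, for Slc25a22, and at chr6:121342324-121342623, plus strand, for Slc6a12. Slc25a22 has 3 windows and Slc6a12 has 5, and a window with the most matches to the last 4 elements is shown. For Slc6a12, 3 windows tied with 1 such match each, and the first by position is shown; the other two each hold an interferon element.
Slc1a4: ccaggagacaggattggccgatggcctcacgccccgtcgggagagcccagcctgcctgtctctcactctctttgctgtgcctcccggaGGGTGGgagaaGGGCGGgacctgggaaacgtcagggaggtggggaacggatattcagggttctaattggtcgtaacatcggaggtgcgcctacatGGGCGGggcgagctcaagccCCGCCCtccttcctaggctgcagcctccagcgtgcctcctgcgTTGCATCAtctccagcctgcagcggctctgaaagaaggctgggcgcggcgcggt
Slc28a2: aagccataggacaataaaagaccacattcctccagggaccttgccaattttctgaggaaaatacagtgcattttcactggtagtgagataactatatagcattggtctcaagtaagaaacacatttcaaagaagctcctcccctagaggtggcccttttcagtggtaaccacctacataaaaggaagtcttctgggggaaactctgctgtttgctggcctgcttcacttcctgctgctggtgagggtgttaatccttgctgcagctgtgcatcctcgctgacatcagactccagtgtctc
Slc25a22: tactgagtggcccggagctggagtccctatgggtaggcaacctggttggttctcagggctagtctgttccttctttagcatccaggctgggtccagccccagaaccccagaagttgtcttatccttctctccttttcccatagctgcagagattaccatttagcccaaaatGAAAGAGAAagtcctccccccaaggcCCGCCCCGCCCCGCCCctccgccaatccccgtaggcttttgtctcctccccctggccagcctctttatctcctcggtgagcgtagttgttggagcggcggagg
Slc6a12: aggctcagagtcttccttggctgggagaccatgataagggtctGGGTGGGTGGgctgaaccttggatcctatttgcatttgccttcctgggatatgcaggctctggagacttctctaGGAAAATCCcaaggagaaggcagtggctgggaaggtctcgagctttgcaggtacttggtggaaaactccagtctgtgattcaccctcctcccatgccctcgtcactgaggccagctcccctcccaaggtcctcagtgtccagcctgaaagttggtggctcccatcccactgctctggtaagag

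The Slc1a4 window holds 3 GC boxes, 1 CACCC box and 1 amino acid response element. The Slc28a2 window holds none of the 6 motifs. The Slc25a22 window holds 3 GC boxes in a row and 1 interferon element, and the Slc6a12 window 2 overlapping CACCC boxes and 1 NF-kB element. RefSeq windows were matched by symbol for 112 of the 148 genes, 156 windows in all. A GC box stood in 70.5% of them and in 35.7% of all 32851 windows, a CACCC box in 42.3% and 31.5%, and a hypoxia element in 26.9% and 19.6%. For the amino acid response element the shares were 3.21% and 3.97%, for the interferon element 5.77% and 8.56%, and for the NF-kB element 1.92% and 1.25%. The 148 genes were chosen on level and the 32851 windows were not, and no share at a like level was computed. The differences in share are thus not a result about solute carriers. Slc30a7 and Slc37a4 also had an NF-kB element, and Slc37a4 was higher in TNF-treated Klf6-deleted than in TNF-treated Lyz2cre cells. Slc39a8, with an interferon element, was higher there too, so genes with such matches went in both directions. These are letter matches and say nothing of binding.

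Carriers of amino acids and peptides made up 25 of the genes (families 1, 3, 6, 7, 15, 36, 38 and 43). With TNF, over 24 tested, 9 were higher and 11 lower (14 and 9 when scaled to library totals) in Klf6-deleted cells, and without TNF 10 were higher and 12 lower (11 and 11 when scaled to library totals). The median log2 difference was -0.12 with and -0.13 without TNF. For this group and those below, the shares over all genes tested were 26.5% higher and 30.8% lower with TNF. Without TNF they were 27.6% and 29.3%. When scaled to library totals, all genes tested gave 7038 higher and 1716 lower of 11717 with TNF, and 5121 and 2408 of 12715 without it. Below, differences without a stated p are log2 values ± SE. Higher or lower with or without TNF compares Klf6-deleted with Lyz2cre cells of that condition, and a gene called so passed the test. That test used the deposited size factors, so a gene that did not pass may pass when scaled to library totals. With TNF, 23 of the 146 genes had no call when scaled, against 49 under the deposited size factors.

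Slc7a5 encodes the light chain of LAT1, the complex that imports leucine and other large neutral amino acids. It had 250.3, 304 and 300.4 normalized counts in TNF-treated Klf6-deleted cells, against 605, 747 and 662 in TNF-treated Lyz2cre cells. Every Klf6-deleted library was below every Lyz2cre library (log2 -1.23, SE 0.10, limma adjusted p = 2.08e-08). Without TNF, Slc7a5 had 639, 633 and 593 normalized counts in untreated Klf6-deleted cells, against 205, 238 and 219 in untreated Lyz2cre cells. Here the order was turned, with every Klf6-deleted library the higher (log2 1.49, SE 0.083, limma adjusted p = 2.88e-11), and the contrast between conditions was -2.73 ± 0.14 (limma adjusted p = 1.45e-12). Slc3a2 encodes the heavy chain that carries Slc7a5 and the other family 7 light chains to the membrane. With TNF, Slc3a2 had 6628, 6685 and 6642 normalized counts in TNF-treated Klf6-deleted cells, against 8481, 8156 and 8464 in TNF-treated Lyz2cre cells. It was lower in Klf6-deleted cells (log2 -0.33, SE 0.039, limma adjusted p = 1.96e-06), but not when scaled to library totals (log2 -0.00328). Untreated, it had 7077, 7356 and 7499 normalized counts in untreated Klf6-deleted cells, against 6698, 7154 and 6631 in untreated Lyz2cre cells. Those groups overlapped, and the difference was small (log2 0.099, SE 0.038, limma adjusted p = 0.0343), and leaving out Klf6-deleted library 2 or 3 or Lyz2cre library 1 or 3 took the adjusted p to between 0.08 and 0.16.

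The other light chains went in both directions. Slc7a7 exports cationic amino acids in exchange for neutral ones and sodium. It had 408, 403 and 428 normalized counts in TNF-treated Klf6-deleted cells, against 1073, 1103 and 1158 in TNF-treated Lyz2cre cells. Its untreated level was 289, 278 and 348 normalized counts in untreated Klf6-deleted cells, against 669, 607 and 649.7 in untreated Lyz2cre cells. All Klf6-deleted libraries of both conditions were lower (with TNF log2 -1.43, SE 0.067, limma adjusted p = 2.29e-11, and untreated log2 -1.08, SE 0.087, limma adjusted p = 5.14e-09). Of its exon bases 7% lie opposite Oxa1l, which reached a group mean of 1080 normalized counts, so its level is uncertain. Slc7a8 encodes the neutral amino acid exchanger LAT2, and with TNF it had 6140.0, 6225 and 6518 normalized counts in TNF-treated Klf6-deleted cells, against 16186, 15317 and 16153 in TNF-treated Lyz2cre cells. Untreated, its level was 1204, 1142 and 1388 normalized counts in untreated Klf6-deleted cells, against 1896, 1872 and 1960.1 in untreated Lyz2cre cells. This light chain was lower in Klf6-deleted cells with TNF (log2 -1.34, SE 0.041, limma adjusted p = 1.06e-13) and, by less, without it (log2 -0.62, SE 0.060, limma adjusted p = 5.44e-08), and the contrast of -0.71 ± 0.077 passed (limma adjusted p = 1.69e-07). Slc7a6, a close relative of Slc7a7, was higher in Klf6-deleted cells in both conditions. It averaged 424 ± 25.4 normalized counts in TNF-treated Klf6-deleted cells and 319.7 ± 36.99 in TNF-treated Lyz2cre cells, and 559 ± 12.3 normalized counts in untreated Klf6-deleted cells and 332 ± 23.2 in untreated Lyz2cre cells (SD, n = 3 each), with differences of 0.41 ± 0.098 and 0.75 ± 0.076.

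Slc1a4 encodes ASCT1, an exchanger of alanine, serine, cysteine and threonine. With TNF, where neither genotype reached the level of the rule, it had 14.01, 25.4 and 17.5 normalized counts in TNF-treated Klf6-deleted cells, against 40.8, 62.8 and 40.1 in TNF-treated Lyz2cre cells. The TNF groups did not overlap, and Klf6-deleted cells were the lower (log2 -1.30, SE 0.31, limma adjusted p = 0.00177). In the untreated table it had 208, 193 and 203 normalized counts in untreated Klf6-deleted cells, against 43.8, 37.5 and 28.4 in untreated Lyz2cre cells. The untreated Klf6-deleted group alone admitted Slc1a4, so this difference of 2.45 on the log2 scale is a description. Slc6a9, the glycine transporter GlyT1, was admitted by both TNF groups, with 138, 132 and 147 normalized counts in TNF-treated Klf6-deleted cells, against 90.5, 131 and 88.3 in TNF-treated Lyz2cre cells. It was higher in Klf6-deleted cells (log2 0.45, SE 0.17, limma adjusted p = 0.0306), but leaving out Klf6-deleted TNF library 1, 2 or 3 or Lyz2cre TNF library 1 or 3 took the adjusted p to between 0.051 and 0.12. Untreated, Slc6a9 had 67.5, 58.8 and 80.4 normalized counts in untreated Klf6-deleted cells, against 7.66, 10.9 and 18.6 in untreated Lyz2cre cells. At these low counts every Klf6-deleted library was the higher (log2 2.46, SE 0.32, limma adjusted p = 2.83e-06). Part of its exons (27.8%) lies opposite Ccdc24, whose highest group mean was 0.951 normalized counts. Slc1a5, the glutamine exchanger ASCT2, was modestly higher in Klf6-deleted cells with TNF (0.20 ± 0.067) and without it (0.44 ± 0.058).

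**Figure D2:**
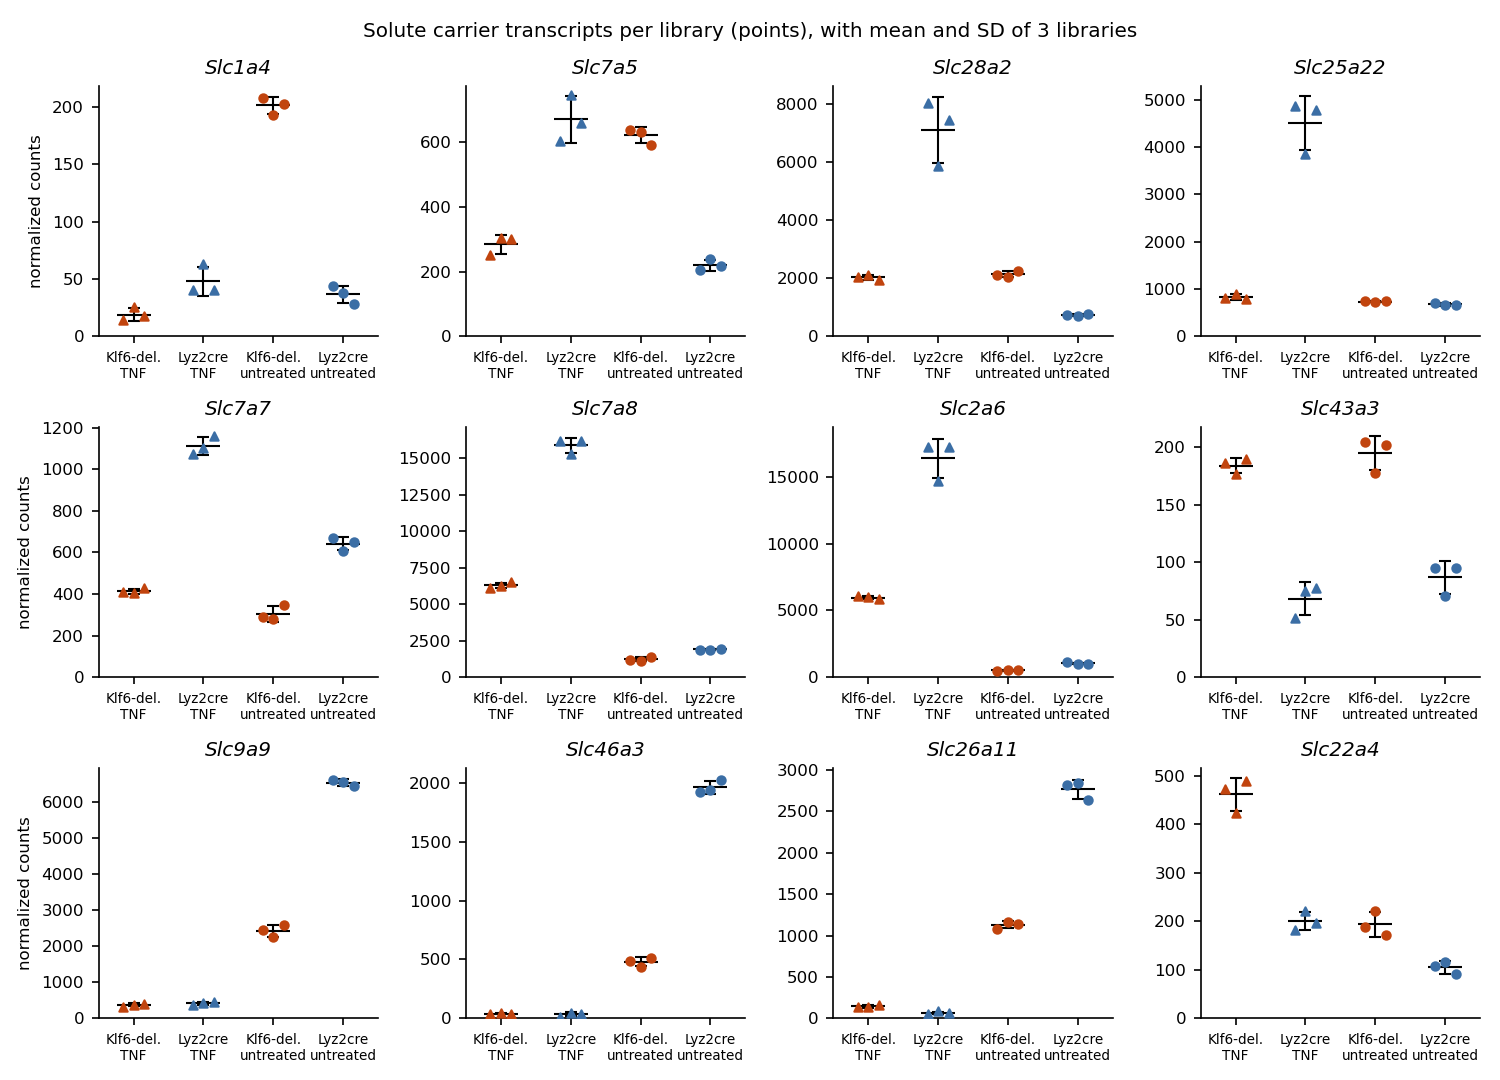
Normalized counts of 12 solute carrier genes in each of the 12 libraries (points), with the mean and SD of 3 libraries (bars), for Klf6-deleted and Lyz2cre cells with TNF (triangles) and without it (circles), each vertical axis starting at 0. Slc7a5, Slc1a4 and Slc28a2 are lower in Klf6-deleted cells with TNF and higher without it, while Slc7a7, Slc7a8 and Slc2a6 are lower in both conditions and Slc22a4 is higher in both. The untreated difference of Slc1a4 is partly fixed by the choice of genes.

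Family 6 also carries osmolytes and creatine. Slc6a12, the betaine and GABA transporter whose promoter window is shown above, had 294, 278 and 299 normalized counts in TNF-treated Klf6-deleted cells, against 872, 617 and 821 in TNF-treated Lyz2cre cells. Every Klf6-deleted TNF library was below every Lyz2cre TNF library (log2 -1.39, SE 0.11, limma adjusted p = 1.46e-08). Values without TNF were 55.8, 67.8 and 77.1 normalized counts in untreated Klf6-deleted cells, against 70.03, 77.5 and 71.1 in untreated Lyz2cre cells, and these groups overlapped. The contrast was -1.26 ± 0.20 (limma adjusted p = 2.13e-05). Slc6a6 takes up taurine and had the highest untreated level per kb of exon of all these genes. With TNF it averaged 10804 ± 160.5 normalized counts in TNF-treated Klf6-deleted cells and 14508 ± 190.1 in TNF-treated Lyz2cre cells (SD, n = 3 each), a difference of -0.43 ± 0.037. Untreated, it had 33991, 31711 and 32102 normalized counts in untreated Klf6-deleted cells, against 52966, 51665 and 53156 in untreated Lyz2cre cells, and all Klf6-deleted libraries were lower (log2 -0.69, SE 0.035, limma adjusted p = 9.03e-12). Slc6a8, the creatine transporter, was higher in Klf6-deleted cells by 0.59 ± 0.049 with TNF and by 0.58 ± 0.046 without it.

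Carriers of amino acids and peptides in lysosomes came next. Slc36a1, a proton-coupled exporter of small amino acids, had 939.6, 886 and 881 normalized counts in TNF-treated Klf6-deleted cells, against 607, 655 and 605 in TNF-treated Lyz2cre cells. All TNF-treated Klf6-deleted libraries were higher (log2 0.54, SE 0.066, limma adjusted p = 3.60e-06). Untreated, the order was turned, with 1289, 1218 and 1399 normalized counts in untreated Klf6-deleted cells, against 1827, 1702 and 1903 in untreated Lyz2cre cells (log2 -0.48, SE 0.056, limma adjusted p = 7.72e-07). Slc36a4 and Slc43a2, both amino acid carriers, did the same, at 0.57 and 0.20 with TNF and -0.28 and -0.69 without it (log2). Slc38a9, the lysosomal arginine sensor that signals to mTORC1, was lower in Klf6-deleted cells with TNF (-0.67 ± 0.084) and without it (-0.61 ± 0.077). Of the lysosomal peptide and histidine carriers, Slc15a3 was lower with TNF (-0.50 ± 0.055) and higher without it (0.23 ± 0.035). Slc15a4 did not pass with TNF (-0.088 ± 0.056, but called higher when scaled to library totals) and was lower without it (-0.75 ± 0.045). A share of 28.1% of Slc15a3 exons lies opposite Tmem132a, and whether the counting used strand is not stated.

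Slc38a1 takes up glutamine with sodium, and with TNF it had 1252, 1349 and 1515 normalized counts in TNF-treated Klf6-deleted cells, against 674, 783 and 681 in TNF-treated Lyz2cre cells. It was higher in Klf6-deleted cells (log2 0.94, SE 0.078, limma adjusted p = 2.75e-08), and slightly so without TNF (0.18 ± 0.044). Slc38a2, its relative that is known to be induced when amino acids are short, was lower with TNF (-0.45 ± 0.046) and did not pass without it (0.088 ± 0.049). Slc43a3 belongs by number to an amino acid family but carries purine nucleobases. It had 186, 176 and 189.5 normalized counts in TNF-treated Klf6-deleted cells, against 51.7, 75.2 and 77.97 in TNF-treated Lyz2cre cells. Its untreated level was 204, 177 and 202 normalized counts in untreated Klf6-deleted cells, against 95.2, 70.2 and 95.2 in untreated Lyz2cre cells. Klf6-deleted groups alone admitted Slc43a3, so its differences of 1.44 and 1.17 on the log2 scale are a description.

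Carriers of nucleosides, vitamins, choline and haem numbered 13. With TNF 3 were higher and 4 lower (7 and 4 when scaled to library totals) in Klf6-deleted cells, and without TNF 4 were higher and 4 lower (5 and 3 when scaled to library totals). Slc28a2 encodes CNT2, which takes up purine nucleosides with sodium. It had 2051, 2108 and 1941 normalized counts in TNF-treated Klf6-deleted cells, against 8051, 5866 and 7469 in TNF-treated Lyz2cre cells. Every TNF-treated Klf6-deleted library was lower (log2 -1.80, SE 0.083, limma adjusted p = 1.72e-11). Untreated, Slc28a2 had 2109, 2054 and 2265 normalized counts in untreated Klf6-deleted cells, against 722, 717 and 757 in untreated Lyz2cre cells, and the Klf6-deleted libraries were all higher (log2 1.55, SE 0.052, limma adjusted p = 2.08e-14). The contrast between conditions was -3.34 ± 0.11 (limma adjusted p = 3.31e-15). The ratio of the TNF level to the untreated level was 0.949 in Klf6-deleted cells and 9.74 in Lyz2cre cells, across tables normalized separately and with no test. The equilibrative nucleoside carriers differed far less. Slc29a3, a lysosomal form, was lower with TNF (-0.46 ± 0.056) and higher without it (0.11 ± 0.039). Slc29a1, at the plasma membrane, did not pass with TNF (-0.12 ± 0.091, but called higher when scaled to library totals) and was higher without it (0.19 ± 0.063).

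Slc46a3 is a lysosomal carrier known for the release of antibody-drug conjugate products. With TNF both genotypes were low, at 38.01 ± 5.31 normalized counts in TNF-treated Klf6-deleted cells and 34.1 ± 17.3 in TNF-treated Lyz2cre cells (SD, n = 3 each), and the groups overlapped. In the untreated table it had 491, 438 and 516 normalized counts in untreated Klf6-deleted cells, against 1925, 1941 and 2026 in untreated Lyz2cre cells. All untreated Klf6-deleted libraries were lower, by the largest untreated decrease of these genes (log2 -2.03, SE 0.061, limma adjusted p = 5.84e-15). Slc44a1, a choline carrier, had 3991, 4045 and 4285 normalized counts in TNF-treated Klf6-deleted cells, against 8252, 8618 and 8375 in TNF-treated Lyz2cre cells. It was lower in Klf6-deleted cells with TNF (log2 -1.04, SE 0.043, limma adjusted p = 4.01e-12) and by a like amount without it (log2 -1.01, SE 0.047, limma adjusted p = 2.38e-12). Slc48a1 moves haem out of the phagolysosome of macrophages that have digested red cells. It had 10767, 10539 and 10670.1 normalized counts in TNF-treated Klf6-deleted cells, against 6856, 7699 and 7281 in TNF-treated Lyz2cre cells, and was higher (log2 0.55, SE 0.045, limma adjusted p = 2.22e-08). Values without TNF were 5715, 5652 and 5514 normalized counts in untreated Klf6-deleted cells, against 6384, 6707 and 6634 in untreated Lyz2cre cells, slightly lower in Klf6-deleted cells (log2 -0.22, SE 0.035, limma adjusted p = 2.50e-05). Slc23a2, which takes up ascorbate with sodium, was lower in Klf6-deleted cells with TNF (-0.86 ± 0.043). It did not pass without TNF (-0.029 ± 0.035), but was called higher when scaled to library totals. Slc19a2, a thiamine carrier, was higher in both conditions (0.93 ± 0.13 with TNF and 0.71 ± 0.097 without it).

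The 5 nucleotide sugar carriers of family 35a feed the Golgi with activated sugars. With TNF all 5 missed the threshold (the nearest was Slc35a4, limma adjusted p = 0.0536), at log2 differences between -0.14 and 0.14 (all 5 were higher when scaled to library totals). Without TNF, Slc35a3 was higher (0.14 ± 0.049) and Slc35a5 lower (-0.48 ± 0.056). Slc35a3 did not pass without Klf6-deleted library 1 (limma adjusted p = 0.085) or without Lyz2cre library 2 (0.094).

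Sugars, carboxylates and sugar phosphates had 19 genes. Among them were Slc5a6, a vitamin carrier of a sugar family, the aromatic amino acid carrier Slc16a10 and the pseudogene Slc2a4rg-ps. With TNF, 10 were higher and 4 lower (14 and 1 when scaled to library totals) in Klf6-deleted cells, with a median log2 difference of 0.43. Without TNF, 2 were higher and 9 lower (4 and 7 when scaled to library totals), with a median of -0.14. The contrast between conditions was above 0 for 14 of the 19 and below 0 for 3 (14 and 2 when scaled to library totals). Over all genes tested it was above 0 for 26.5% and below 0 for 25.7%, and when scaled for 4781 and 1892 of 11425. Slc2a6, a hexose carrier of lysosomes that inflammatory stimuli are known to induce in macrophages, had 6052, 5987 and 5843 normalized counts in TNF-treated Klf6-deleted cells, against 17253, 14701 and 17206 in TNF-treated Lyz2cre cells. Untreated, it had 464, 519 and 564 normalized counts in untreated Klf6-deleted cells, against 1112, 1030.3 and 999 in untreated Lyz2cre cells. In both conditions every Klf6-deleted library was lower (with TNF log2 -1.46, SE 0.054, limma adjusted p = 1.07e-12, and untreated log2 -1.02, SE 0.072, limma adjusted p = 7.02e-10). Slc2a3, the glucose carrier GLUT3, had 55.1, 82.7 and 76.8 normalized counts in TNF-treated Klf6-deleted cells, against 21.9, 39.1 and 24.1 in TNF-treated Lyz2cre cells. It was higher in every TNF-treated Klf6-deleted library (log2 1.33, SE 0.27, limma adjusted p = 4.73e-04), and untreated, at 319 ± 23.7 normalized counts in untreated Klf6-deleted cells and 321 ± 25.8 in untreated Lyz2cre cells (SD, n = 3 each), the groups overlapped. Slc2a8, a hexose carrier, did not pass with TNF (0.11 ± 0.13, but called higher when scaled to library totals) and was lower without it (-0.69 ± 0.068). Slc2a9, which carries urate, was higher with TNF (0.40 ± 0.15) and did not pass without it (-0.045 ± 0.066).

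Family 16 carries monocarboxylates and related acids. Slc16a7, the pyruvate and lactate carrier MCT2, was at 214 ± 21.4 normalized counts in TNF-treated Klf6-deleted cells and 271 ± 6.64 in TNF-treated Lyz2cre cells (SD, n = 3 each; log2 -0.35, SE 0.11, limma adjusted p = 0.012). This TNF call was lost without Klf6-deleted TNF library 1 (adjusted p = 0.057) and when scaled to library totals (log2 -0.0199). Untreated, Slc16a7 had 647, 581 and 604 normalized counts in untreated Klf6-deleted cells, against 1624, 1533 and 1626 in untreated Lyz2cre cells, and every Klf6-deleted library was lower (log2 -1.38, SE 0.056, limma adjusted p = 3.36e-13). Slc16a6, a less studied member, had 144, 74.5 and 140.0 normalized counts in TNF-treated Klf6-deleted cells, against 35.8, 41.2 and 53.9 in TNF-treated Lyz2cre cells. Its untreated values were 503, 496 and 609 normalized counts in untreated Klf6-deleted cells, against 881, 864 and 887 in untreated Lyz2cre cells. It was higher with TNF (log2 1.39, SE 0.25, limma adjusted p = 1.66e-04) and lower without it (log2 -0.72, SE 0.073, limma adjusted p = 1.31e-07), but 21.5% of its exon bases lie opposite Amz2, which reached a group mean of 654 normalized counts, so its level is uncertain. Slc16a1, the lactate carrier MCT1, was higher with TNF (0.60 ± 0.13) and did not pass without it (0.16 ± 0.085, but called higher when scaled to library totals). Slc16a10 carries aromatic amino acids. It was lower with TNF (-0.39 ± 0.040), though not when scaled to library totals (log2 -0.0645), and higher without it, at 4435 ± 172 normalized counts in untreated Klf6-deleted cells and 2789 ± 144 in untreated Lyz2cre cells (SD, n = 3 each; log2 0.67, SE 0.044, limma adjusted p = 2.83e-10).

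Slc13a3 takes up succinate and other dicarboxylates with sodium. It had 774, 792 and 806 normalized counts in TNF-treated Klf6-deleted cells, against 557, 579 and 576 in TNF-treated Lyz2cre cells. Klf6-deleted cells were higher (log2 0.47, SE 0.065, limma adjusted p = 1.27e-05), and untreated they were higher by more (log2 0.91, SE 0.11, limma adjusted p = 7.28e-07). The contrast of -0.44 ± 0.13 passed (limma adjusted p = 0.0074), but not when scaled to library totals (log2 -0.247). Slc45a4, of a family related to sucrose carriers, was higher with TNF, at 376 ± 36.8 normalized counts in TNF-treated Klf6-deleted cells and 234 ± 6.57 in TNF-treated Lyz2cre cells, and lower without it, at 1314 ± 76.5 normalized counts in untreated Klf6-deleted cells and 2626 ± 110.3 in untreated Lyz2cre cells (SD, n = 3 each). Its differences were 0.68 ± 0.10 and -0.999 ± 0.050. Slc5a6, the carrier of biotin and pantothenate, was higher with TNF (0.44 ± 0.14) and lower without it (-0.78 ± 0.12). Atraid lies opposite 9.92% of its exon bases and reached a group mean of 979 normalized counts, against 213 for Slc5a6. Slc37a2, a sugar phosphate carrier of the endoplasmic reticulum abundant in macrophages, was lower with TNF (-0.26 ± 0.050, but 0.0706 when scaled to library totals) and without it (-0.46 ± 0.032). Slc37a4, the glucose 6-phosphate carrier of the same membrane, was higher with TNF (0.43 ± 0.11) and did not pass without it (0.083 ± 0.079).

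Mitochondrial carriers of family 25 were the largest group, with 33 genes. With TNF 7 were higher and 9 lower (23 and 5 when scaled to library totals) in Klf6-deleted cells, and untreated 5 were higher and 14 lower (10 and 7 when scaled to library totals), so the balance turned with the scaling. The medians of the log2 difference were 0.070 with and -0.099 without TNF. Slc25a22 brings glutamate into mitochondria. It had 802, 893 and 799 normalized counts in TNF-treated Klf6-deleted cells, against 4875, 3865 and 4793 in TNF-treated Lyz2cre cells. All TNF-treated Klf6-deleted libraries were lower than the TNF-treated Lyz2cre libraries, by the largest such genotype difference of these genes (log2 -2.43, SE 0.077, limma adjusted p = 1.32e-13). Its untreated level was 742, 722 and 743 normalized counts in untreated Klf6-deleted cells, against 713, 654 and 664 in untreated Lyz2cre cells, a difference that did not pass (but did when scaled to library totals, log2 0.253). The contrast was -2.55 ± 0.10 (limma adjusted p = 6.64e-14). The ratio of the TNF level to the untreated level was 1.13 in Klf6-deleted cells and 6.66 in Lyz2cre cells, across tables normalized separately and with no test.

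The aspartate and glutamate carriers Slc25a12 and Slc25a13 went apart with TNF. Slc25a12 was lower in Klf6-deleted cells with TNF, at 598 ± 26.5 normalized counts in TNF-treated Klf6-deleted cells and 1064 ± 71.4 in TNF-treated Lyz2cre cells (SD, n = 3 each, log2 -0.83, SE 0.069, limma adjusted p = 3.28e-08). It did not pass without TNF (0.11 ± 0.063), but was called higher when scaled to library totals. Slc25a13 was higher with TNF (0.38 ± 0.12) and without it (0.53 ± 0.066). Slc25a10, the dicarboxylate carrier, was lower with TNF (-0.39 ± 0.054), though not when scaled to library totals (log2 -0.0642). Untreated, Slc25a10 had 1009, 938 and 967 normalized counts in untreated Klf6-deleted cells, against 1737, 1801 and 1809 in untreated Lyz2cre cells, lower in every Klf6-deleted library (log2 -0.88, SE 0.048, limma adjusted p = 2.51e-11). Slc25a23 and Slc25a25 are calcium-dependent carriers of ATP-magnesium and phosphate. With TNF, Slc25a23 had 51.4, 56.3 and 60.3 normalized counts in TNF-treated Klf6-deleted cells, against 30.8, 21.6 and 17.2 in TNF-treated Lyz2cre cells, and was higher in Klf6-deleted cells (log2 1.27, SE 0.27, limma adjusted p = 7.53e-04). Untreated, the groups overlapped and it was lower (log2 -0.26, SE 0.11, limma adjusted p = 0.0495), but it did not pass without Klf6-deleted library 1 or 2 or Lyz2cre library 1 or 2 (adjusted p between 0.072 and 0.26), in edgeR (0.057) or in DESeq2 (0.091). Slc25a25 was lower with TNF (-0.78 ± 0.072) and higher without it (0.24 ± 0.091).

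Iron enters mitochondria through the mitoferrins Slc25a37 and Slc25a28. With TNF, Slc25a37 had 9302, 8551 and 8668 normalized counts in TNF-treated Klf6-deleted cells, against 11894, 11223 and 10685 in TNF-treated Lyz2cre cells. It was lower in Klf6-deleted cells with TNF (-0.35 ± 0.047, not called when scaled to library totals) and without it (-0.36 ± 0.055). Slc25a28 was lower with TNF (-0.71 ± 0.092) and without it (-0.31 ± 0.077, not called when scaled to library totals). The ADP/ATP carriers Slc25a4 and Slc25a5 did not pass with TNF (0.086 ± 0.073 and 0.11 ± 0.061) and were slightly higher without it (0.24 ± 0.041 and 0.31 ± 0.038). Scaled to library totals, both were called higher with TNF (log2 0.414 and 0.438). Slc25a5 also passed with TNF in edgeR (adjusted p = 0.043) and when Klf6-deleted TNF library 3 was left out (limma adjusted p = 0.0062). Slc25a5 has near-identical pseudogene copies, so its count is uncertain. Slc25a3, the phosphate carrier, passed in neither condition (0.056 ± 0.043 with TNF and -0.063 ± 0.034 without it), nor did Slc25a39, which imports glutathione (0.073 ± 0.053 and 0.051 ± 0.039), although both were higher with TNF when scaled to library totals.

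Carriers of inorganic ions and protons numbered 23. With TNF, over 22 tested, 5 were higher and 11 lower (12 and 8 when scaled to library totals) in Klf6-deleted cells, so the balance turned with the scaling, and without TNF 4 were higher and 13 lower (8 and 12 when scaled to library totals). Slc26a11, a chloride and sulfate carrier found in lysosomes, had the highest contrast of these genes. It had 138, 134 and 159 normalized counts in TNF-treated Klf6-deleted cells, against 54.7, 83.4 and 58.5 in TNF-treated Lyz2cre cells, and was higher in all Klf6-deleted libraries (log2 1.15, SE 0.18, limma adjusted p = 5.10e-05). In the untreated table it had 1084, 1169 and 1137 normalized counts in untreated Klf6-deleted cells, against 2825, 2845 and 2637 in untreated Lyz2cre cells, and was lower in all of them (log2 -1.29, SE 0.047, limma adjusted p = 8.35e-14). The contrast was 2.44 ± 0.16 (limma adjusted p = 1.76e-10). Slc4a7, a sodium bicarbonate carrier, had 6417, 6113 and 6597 normalized counts in TNF-treated Klf6-deleted cells, against 9681, 11219 and 9899.6 in TNF-treated Lyz2cre cells. It was lower in Klf6-deleted cells with TNF (log2 -0.68, SE 0.053, limma adjusted p = 1.19e-08) and did not pass without it (-0.068 ± 0.076). Slc4a4, another sodium bicarbonate carrier, averaged 7.23 ± 2.19 normalized counts in TNF-treated Klf6-deleted cells and 7.61 ± 2.87 in TNF-treated Lyz2cre cells (SD, n = 3 each). Untreated, Slc4a4 had 143, 142 and 99.9 normalized counts in untreated Klf6-deleted cells, against 25.2, 10.9 and 20.8 in untreated Lyz2cre cells, a description since the untreated Klf6-deleted group alone admitted it.

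Among sodium/proton exchangers of endosomes and Golgi, Slc9a7 and Slc9a9 were lower in untreated Klf6-deleted cells, and Slc9a8 did not pass (0.11 ± 0.055). Slc9a9, which acts on endosomal pH, had 326, 383 and 408 normalized counts in TNF-treated Klf6-deleted cells, against 377, 436 and 455 in TNF-treated Lyz2cre cells, and these groups overlapped. Values without TNF were 2437, 2243 and 2593 normalized counts in untreated Klf6-deleted cells, against 6613, 6562 and 6434 in untreated Lyz2cre cells, and every Klf6-deleted library was lower (log2 -1.43, SE 0.046, limma adjusted p = 1.14e-14). Slc9a7 was lower with TNF (-0.88 ± 0.18) and without it (-1.32 ± 0.098). Slc12a4, a potassium-chloride carrier that acts on cell volume, had 1572, 1620.2 and 1649 normalized counts in TNF-treated Klf6-deleted cells, against 3934, 3385 and 3681 in TNF-treated Lyz2cre cells. All TNF-treated Klf6-deleted libraries were lower (log2 -1.18, SE 0.056, limma adjusted p = 2.13e-11). Untreated, Slc12a4 had 1430.4, 1257 and 1410.2 normalized counts in untreated Klf6-deleted cells, against 1205, 1131 and 1159 in untreated Lyz2cre cells, slightly higher in Klf6-deleted cells (log2 0.23, SE 0.055, limma adjusted p = 0.0018). Its relative Slc12a7 was lower with TNF (-0.52 ± 0.078) and without it (-0.38 ± 0.040).

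Calcium exchangers were lower with TNF. Slc8a1, a sodium/calcium exchanger, had 187, 172 and 179 normalized counts in TNF-treated Klf6-deleted cells, against 470.5, 382 and 484 in TNF-treated Lyz2cre cells. It was lower in every TNF-treated Klf6-deleted library (log2 -1.30, SE 0.11, limma adjusted p = 3.07e-08), and by less without TNF (-0.53 ± 0.067). Slc24a3, which exchanges sodium for calcium and potassium, was the gene nearest to the rule on level. It had 19.6, 12.7 and 4.86 normalized counts in TNF-treated Klf6-deleted cells, against 49.7, 33.97 and 43.6 in TNF-treated Lyz2cre cells, lower in Klf6-deleted cells (log2 -1.86, SE 0.41, limma adjusted p = 0.00114). Untreated, it had 116, 95.7 and 91.7 normalized counts in untreated Klf6-deleted cells, against 56.9, 82.3 and 86.4 in untreated Lyz2cre cells, which is a description.

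Carriers of zinc, copper, magnesium and manganese numbered 22. With TNF 5 were higher and 13 lower (9 and 6 when scaled to library totals) in Klf6-deleted cells, and without TNF 5 were higher and 8 lower (9 and 7 when scaled to library totals), so the balance turned with the scaling in both conditions. The zinc importers of the ZIP family (Slc39a) went in both directions. Slc39a8 imports zinc and manganese and is known to be induced by inflammatory signals. It had 146, 152 and 153 normalized counts in TNF-treated Klf6-deleted cells, against 72.6, 74.1 and 48.2 in TNF-treated Lyz2cre cells, higher in every Klf6-deleted library (log2 1.22, SE 0.18, limma adjusted p = 2.46e-05), and it was higher by less without TNF (0.42 ± 0.087). Slc39a14, its close relative, which also imports iron, was lower with TNF (-0.29 ± 0.055), with the sign turned when scaled to library totals, and higher without it (0.55 ± 0.065). Slc39a13, a ZIP carrier of intracellular membranes, had 703, 715 and 666 normalized counts in TNF-treated Klf6-deleted cells, against 1473, 1559 and 1457 in TNF-treated Lyz2cre cells. It was lower (log2 -1.11, SE 0.060, limma adjusted p = 1.25e-10), and 4.42% of its exon bases lie opposite Psmc3. Slc39a4, known for zinc uptake in the gut, had 468, 444 and 453 normalized counts in TNF-treated Klf6-deleted cells, against 204, 286 and 248 in TNF-treated Lyz2cre cells, and was higher in every TNF-treated Klf6-deleted library (log2 0.90, SE 0.11, limma adjusted p = 3.94e-06). Neither passed without TNF (0.16 ± 0.076 and -0.31 ± 0.14), but Slc39a13 passed without Lyz2cre library 1 (limma adjusted p = 0.035) and Slc39a4 without Klf6-deleted library 1 (0.026). Scaled to library totals, Slc39a13 was also called higher without TNF (log2 0.288, limma adjusted p = 0.0039).

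Zinc exporters of the ZnT family (Slc30a) included Slc30a4, which fills vesicles and had 291, 284 and 287 normalized counts in TNF-treated Klf6-deleted cells, against 443, 542 and 449 in TNF-treated Lyz2cre cells. It was lower with TNF (log2 -0.73, SE 0.095, limma adjusted p = 6.42e-06) and higher without it (0.41 ± 0.068). Slc30a1, the exporter of the plasma membrane, was lower with TNF (-0.65 ± 0.064) and without it (-0.33 ± 0.055). Slc39a1, a zinc importer and the most abundant ZIP transcript per kb, was lower with TNF (-0.77 ± 0.044) and without it (-0.46 ± 0.042). The copper carriers were lower too. Slc31a2 had 3117, 3174 and 2843 normalized counts in TNF-treated Klf6-deleted cells, against 5906, 5469.6 and 5750.1 in TNF-treated Lyz2cre cells. It was lower in Klf6-deleted cells with TNF (log2 -0.91, SE 0.050, limma adjusted p = 1.69e-10) and without it (log2 -0.85, SE 0.066, limma adjusted p = 2.97e-09). Slc31a1, the main copper importer, was lower with TNF (-0.57 ± 0.040) and without it (-0.19 ± 0.059, not called when scaled to library totals).

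Organic ions, lipids and vesicle contents had 8 genes. With TNF 3 were higher and 3 lower (5 and 1 when scaled to library totals) in Klf6-deleted cells, and without TNF 1 was higher and 4 lower (1 and 2 when scaled to library totals). Slc22a4, the ergothioneine carrier OCTN1, had 473, 423 and 489 normalized counts in TNF-treated Klf6-deleted cells, against 183, 220.3 and 197 in TNF-treated Lyz2cre cells. Its untreated level was 188, 221 and 171 normalized counts in untreated Klf6-deleted cells, against 108, 116 and 90.8 in untreated Lyz2cre cells. All Klf6-deleted libraries of both conditions were higher (with TNF log2 1.20, SE 0.10, limma adjusted p = 4.04e-08, and untreated log2 0.87, SE 0.14, limma adjusted p = 3.53e-05). Slc22a5, its relative that takes up carnitine, was lower with TNF (-0.69 ± 0.096) and without it (-0.26 ± 0.10, not called when scaled to library totals). Slc17a9, which loads ATP into vesicles, was higher with TNF, at 69.2 ± 8.50 normalized counts in TNF-treated Klf6-deleted cells and 33.5 ± 6.34 in TNF-treated Lyz2cre cells, and lower without it, at 139 ± 20.8 normalized counts in untreated Klf6-deleted cells and 230.4 ± 9.29 in untreated Lyz2cre cells (SD, n = 3 each). Its differences were 1.03 ± 0.23 and -0.74 ± 0.13. Slc17a5, the lysosomal exporter of sialic acid, moved the same way (0.44 ± 0.084 and -0.17 ± 0.041). Of the fatty acid carriers, Slc27a1 was slightly lower with TNF (-0.13 ± 0.041), a direction that turned when scaled to library totals, and did not pass without it (-0.076 ± 0.034). Slc27a4 did not pass with TNF (-0.041 ± 0.061) and was lower without it (-0.65 ± 0.058). Scaled to library totals, its TNF difference turned sign and was called higher (log2 0.286).

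**Figure D3:**
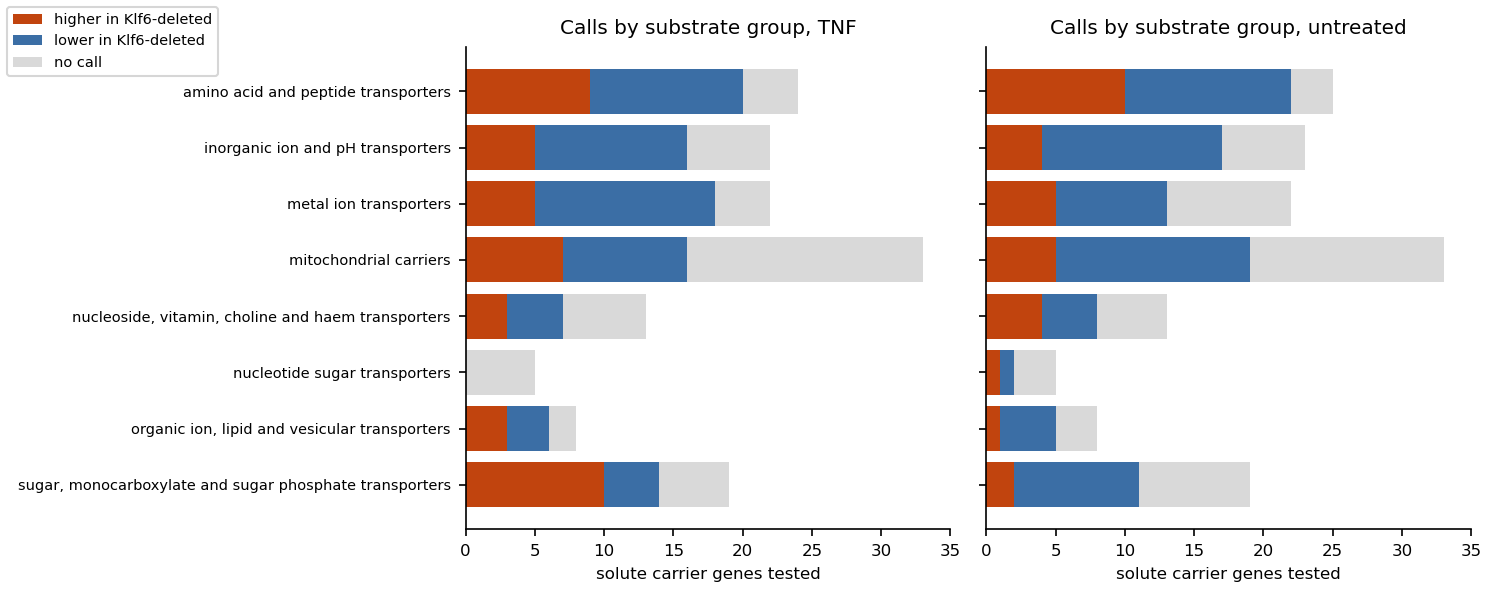
Number of solute carrier genes higher (orange), lower (blue) or not called (grey) in Klf6-deleted against Lyz2cre cells, by substrate group, with TNF on the left and untreated on the right. Sugar, monocarboxylate and sugar phosphate carriers have 10 higher and 4 lower with TNF, and 2 higher and 9 lower without it. Over all genes tested 26.5% were higher and 30.8% lower with TNF, and 27.6% and 29.3% without it.

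The 25 genes called in opposite directions came from every substrate group but the nucleotide sugar carriers. Lower with TNF and higher without it were Slc1a4, Slc3a2, Slc7a5, Slc12a4, Slc15a3, Slc16a10, Slc25a25, Slc28a2, Slc29a3, Slc30a4 and Slc39a14. Higher with TNF and lower without it were Slc5a6, Slc9a3r1, Slc16a6, Slc17a5, Slc17a9, Slc20a1, Slc25a23, Slc25a45, Slc26a11, Slc36a1, Slc36a4, Slc43a2, Slc45a4 and Slc48a1. The untreated call of Slc1a4 is partly fixed by the choice of genes. When scaled to library totals, 18 of the 25 kept both calls, or 17 of the other 24. Slc3a2, Slc16a10 and Slc39a14 then lost the TNF call, and Slc17a5, Slc20a1, Slc25a23 and Slc25a45 the untreated one. Slc20a1, a phosphate carrier, had log2 differences of 0.26 with and -0.14 without TNF. Slc9a3r1, the scaffold that anchors ion carriers to the cytoskeleton, had 0.50 and -0.29. Slc25a45, a mitochondrial family member, had 0.60 and -0.24. At the other end, 21 genes passed in neither condition, with log2 differences between -0.16 and 0.49 with TNF and between -0.19 and 0.12 without it. They included the folate carrier Slc19a1, the riboflavin carrier Slc52a2, the acetyl-CoA carrier Slc33a1, the zinc exporters Slc30a6 and Slc30a9, the nucleotide sugar carriers Slc35a1, Slc35a2 and Slc35a4, and 7 mitochondrial carriers. These had no call under the deposited size factors. Scaled to library totals, Slc19a1, Slc25a3, Slc25a26, Slc25a38, Slc25a39, Slc25a44 and Slc25a46 were called higher with TNF, as were these nucleotide sugar carriers.

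**Figure D4:**
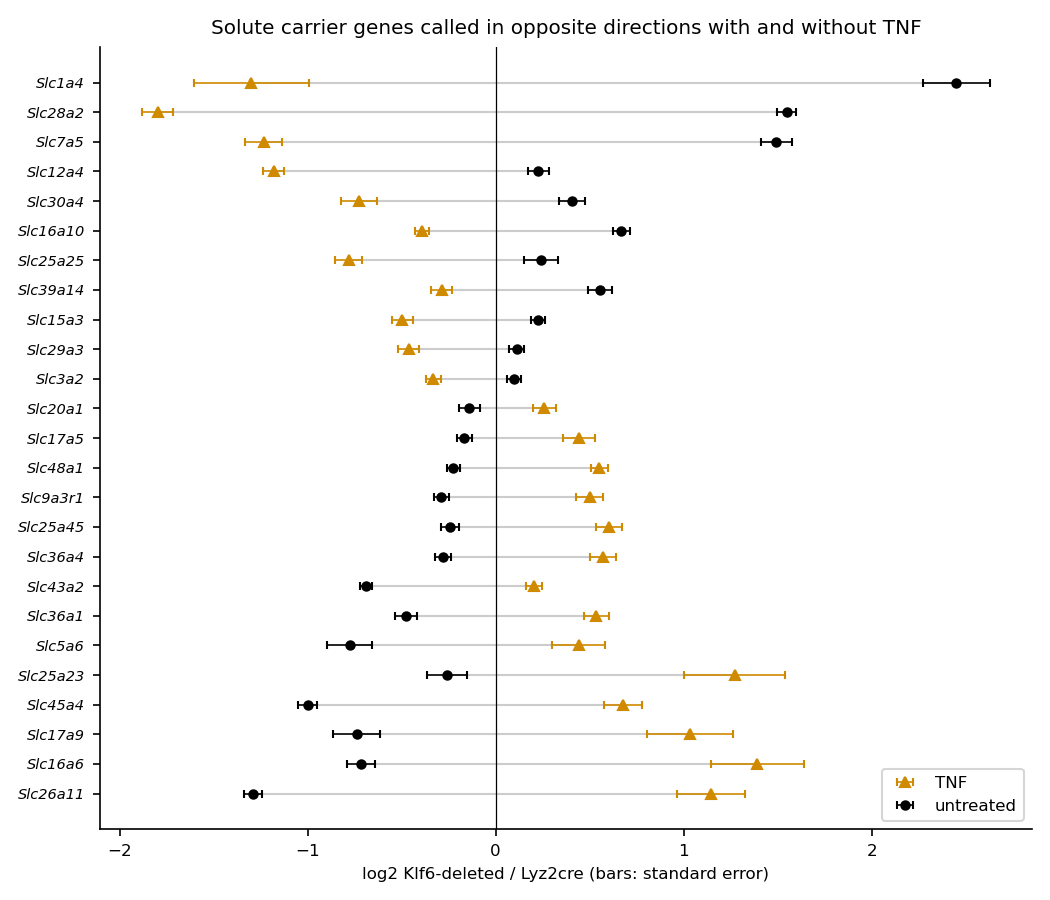
Log2 difference between Klf6-deleted and Lyz2cre cells with TNF (triangles) and without it (circles) for the 25 solute carrier genes called in opposite directions, with bars for the standard error and genes ordered by the contrast between conditions. Slc1a4 at the top has -1.30 and 2.45, the second partly fixed by the choice of genes, and Slc26a11 at the bottom 1.15 and -1.29.

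Levels with and without TNF lie in tables normalized separately, so ratios between them have no test. Cell markers also differed between conditions. The 9 neutrophil markers took 0.0419 to 0.0446% of normalized counts in untreated Klf6-deleted and 0.0509 to 0.0566% in untreated Lyz2cre libraries. With TNF they took 0.000922 to 0.00116% and 0.00123 to 0.00136%. Stromal and monocyte shares were also lower with TNF in both genotypes. Macrophage shares in Klf6-deleted and endothelial shares in Lyz2cre libraries were higher. The part of these shifts in the ratios was not tested. The TNF level divided by the untreated level had a median of 0.840 in Klf6-deleted cells and 0.758 in Lyz2cre cells over the 148 genes, against 0.840 and 0.820 over the genes that meet the rule on level. At least 2 was reached by 14 genes in Klf6-deleted and 20 in Lyz2cre cells, or 9.46% and 13.5%, against 4.43% and 9.09% of genes that meet the rule on level. A ratio of 0.5 or less was held by 31 and 36, or 20.9% and 24.3%, against 17.6% and 23.1%. The highest ratio was that of Slc2a6, at 11.6 in Klf6-deleted cells and 15.7 in Lyz2cre cells. Slc7a8 had 5.06 in Klf6-deleted cells and 8.32 in Lyz2cre cells, and Slc4a7 5.73 in Klf6-deleted cells and 8.81 in Lyz2cre cells. Slc6a12 had ratios of 4.34 in Klf6-deleted cells and 10.6 in Lyz2cre cells, and Slc25a37 of 6.33 in Klf6-deleted cells and 6.30 in Lyz2cre cells. Low ratios included 0.0789 in Klf6-deleted cells and 0.0174 in Lyz2cre cells for Slc46a3, 0.127 in Klf6-deleted cells and 0.0237 in Lyz2cre cells for Slc26a11 and 0.154 in Klf6-deleted cells and 0.0647 in Lyz2cre cells for Slc9a9.

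Per kb of exon, which allows levels of different genes to be compared, 10 genes stood highest. With TNF the order was led by Slc48a1 in Klf6-deleted cells (group mean 3874 normalized counts per kb, against 2646 in Lyz2cre cells) and by Slc2a6 in Lyz2cre cells (1856 in Klf6-deleted cells, against 5103 in Lyz2cre cells). Slc7a8 followed in TNF-treated Lyz2cre cells, with 1258 per kb in Klf6-deleted and 3174 in Lyz2cre cells. Slc6a6 led in untreated cells of both genotypes, with 3855 per kb in Klf6-deleted and 6219 in Lyz2cre cells. The heavy chain Slc3a2 and the ADP/ATP carrier Slc25a5 varied least among the 10. Untreated, Slc3a2 had 2072 per kb in Klf6-deleted and 1935 in Lyz2cre cells, and Slc25a5 had 2268 and 1833.

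**Figure D5:**
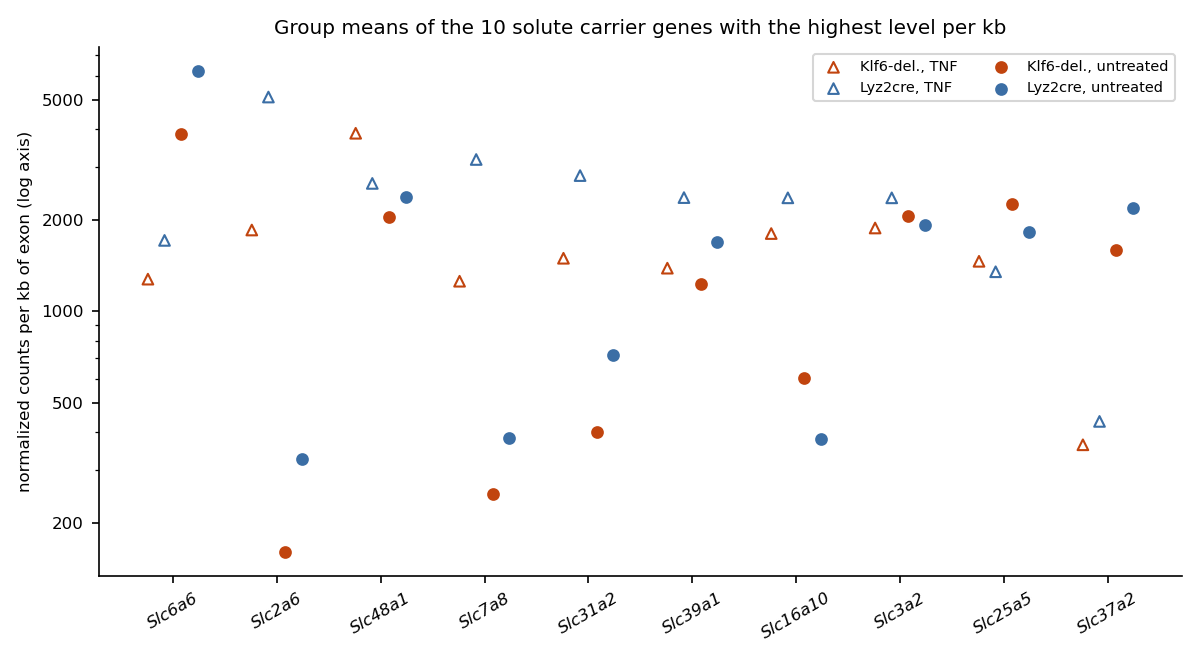
Group means, in normalized counts per kb of exon on a log axis, of the 10 solute carrier genes with the highest level, for Klf6-deleted (orange) and Lyz2cre cells (blue) with TNF (open triangles) and without it (filled circles). Slc2a6 is highest with TNF in Lyz2cre cells, and Slc6a6 is highest without TNF (3855 in Klf6-deleted and 6219 in Lyz2cre cells).

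Genes that serve the same transport under other symbols were listed beside the solute carriers. ABC transporters pump lipids and drugs with ATP; 12 were higher and 7 lower of 29 tested with TNF, and 6 higher and 18 lower of 32 tested without it (scaled to library totals, 21 and 4, and 10 and 15). Among all genes tested 26.5% were higher and 30.8% lower with TNF, and 27.6% higher and 29.3% lower without it. Lysosomal amino acid sensing, through which Slc38a9 signals, had 18 genes, of which 9 were higher and 7 lower with TNF and 2 higher and 9 lower without it (scaled, 12 and 0, and 4 and 7). Rragd and Flcn, a Rag GTPase and its regulator, were both higher with TNF (log2 1.57, SE 0.22, limma adjusted p = 1.59e-05, and log2 0.91, SE 0.070, limma adjusted p = 9.87e-09) and lower without it (log2 -0.44, SE 0.078, limma adjusted p = 9.98e-05, and log2 -0.64, SE 0.043, limma adjusted p = 4.65e-10). The 14 mitochondrial transport genes outside family 25 had 1 higher and 10 lower with TNF and 1 higher and 6 lower without it (scaled, 3 and 2, and 4 and 3, so the balance turned). Emb, the partner that brings Slc16a7 to the membrane, was lower with TNF (log2 -1.12, SE 0.088, limma adjusted p = 1.59e-08) and without it (log2 -1.13, SE 0.086, limma adjusted p = 2.36e-09). Bsg, the partner of Slc16a1, was higher with TNF (log2 0.20, SE 0.040, limma adjusted p = 5.10e-04) and without it (log2 0.49, SE 0.036, limma adjusted p = 1.36e-09). The sodium pump and chaperone list that holds both had 2 higher and 3 lower of 5 tested with TNF, and 2 of each without it (scaled, 2 and 2, and 3 and 2). Of the zinc response genes Mt1 and Mtf1 were tested, and Mt1, a metallothionein, was higher with TNF (log2 0.59, SE 0.079, limma adjusted p = 8.31e-06) and lower without it (log2 -0.25, SE 0.055, limma adjusted p = 6.09e-04), but scaled to library totals neither gene was called lower. Of the organic anion carriers named Slco, 1 was higher and 1 lower of 3 tested with TNF, and 3 were higher and 1 lower of 4 tested without it (scaled, 2 and 1, and 3 and 1).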

How the data were processed

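Libraries were made from 150 ng of total RNA of bone marrow-derived macrophages with a stranded, rRNA-depleting Illumina kit, per the labels' protocols. Per the submitters' processing notes, Cufflinks, GRCm39 and mm10 were in use. Aligner, counter and use of strand are items not given in the sources used here. The authors deposited 2 tables of normalized signal, 1 for untreated and 1 for TNF-treated libraries, normalized separately. Every deposited signal is a whole number of reads times 1 constant of its library (largest deviation 5.2e-05 reads, tolerance 0.001), so reads could be recovered. The plan allowed for this unit, and limma was used.

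Recovered reads came to 16.9 to 23.4 M a library, and depth limits the precision of low genes such as Slc1a4 with TNF. Each table was fitted alone with limma (mean-variance trend) on log2(value + 1), keeping those genes that 3 or more libraries held at 1 CPM or above. The pseudocount understates fold changes of low genes. Benjamini-Hochberg adjustment ran over all genes tested, and an adjusted p below 0.05 was a call. Differences between conditions were a contrast of within-table differences over 12 libraries. Symbols came from a reference table that named 22867 of 22896 and 21411 of 21437 identifiers, exon lengths from GENCODE vM21, and promoters from RefSeq. All 12 value columns were used.

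The members and lists were chosen with earlier results of these data known, and substrate groups were set by family number. A rule named 46 genes (the 10 highest and 10 lowest calls of each fit, 2 of each substrate group and the 10 highest per kb). The other genes in the text were chosen with their values in view, and a few members counted in the totals are not reported here by name. Alternatives were edgeR, DESeq2, a pseudocount of 8, no filter, scaling to library totals, an adjusted p of 0.01, levels of 50 and 200, the replicate block, and each library left out. The fits were tested on simulated data with 200 changed genes. That simulation was scaled to library totals and changed far fewer genes than were called here. It therefore does not bear on the choice of size factors. R 4.3.3 was used with limma 3.58.1, DESeq2 1.42.0 and edgeR 4.0.16, and Python 3.11.15 with pandas 2.3.3, numpy 2.4.6 and matplotlib 3.10.9.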

Additional observations from a re-analysis of the deposited data

Results flagged for a closer look

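The genotype difference with TNF minus that without TNF (log2, limma contrast, adjusted p below 0.05) was furthest below 0 for Slc1a4 (-3.75), Slc28a2 (-3.34), Slc7a5 (-2.73), Slc25a22 (-2.55), Slc24a3 (-2.30), Slc6a9 (-2.01), Slc12a4 (-1.41), Slc39a13 (-1.26), Slc6a12 (-1.26) and Slc30a4 (-1.13). For Slc1a4 and Slc24a3 the untreated Klf6-deleted group alone met the rule on level, so their values are a description. The contrast was furthest above 0 for Slc26a11 (2.44), Slc46a3 (2.33), Slc16a6 (2.11), Slc17a9 (1.77), Slc45a4 (1.67), Slc25a23 (1.53), Slc2a3 (1.33), Slc9a9 (1.25), Slc5a6 (1.22) and Slc39a4 (1.21). These 20 genes are the 10 at each end of the contrast. For Slc46a3 and Slc9a9 the TNF groups overlapped and both genotypes were far lower than in the untreated table, which was normalized separately.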

How the results depend on the processing

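Scaling to library totals moved the counts most: with TNF 89 were higher and 34 lower in place of 42 and 55, without TNF the higher genes became 50 in place of 32, and for the contrast between conditions 25 were below 0 in place of 40. On the log2 scale Slc37a2 with TNF then turned to 0.0706 (not called), Slc35a5 with TNF to 0.197 (called) and the contrast of Slc44a1 to 0.174 (called); the cause was not tested. Genes changed with TNF, without TNF and in the contrast numbered 98, 93 and 91 in edgeR and 93, 90 and 91 in DESeq2. Leaving out 1 library gave 88 to 97 changed with TNF (37 to 42 higher, 51 to 55 lower), 88 to 92 without TNF (29 to 31 higher, 58 to 62 lower) and 84 to 91 in the contrast (48 to 52 above 0, 36 to 41 below). Labels give no pairing; same-numbered libraries correlated at -0.0209, -0.0123 and -0.0295 with TNF and 0.152, -0.0378 and 0.158 without it. With the replicate block, 95 genes changed with TNF, 98 without it and 89 in the contrast. Over all alternatives for the genes named by the rule, 1711 called values kept direction and call, 50 kept direction and lost the call and 1 turned; of values with no call 240 kept direction and stayed uncalled, 19 gained a call in the same direction, 15 turned and stayed uncalled and 2 turned and gained a call. Depth limits genes near the level of 100 normalized counts.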
